A study of Mus musculus with 44 samples.

Results

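Narrow H3K27ac regions were examined in vehicle-treated granulosa cells of Smad3PA/PA mice, the somatic cells that surround and nurse the oocyte. Peaks of the 2 vehicle H3K27ac libraries that overlapped by at least 1 bp were merged, and a merged region was kept when it was under 2 kb wide and met at least 1 H3K27ac peak of the GDF9-treated cells. The members were thus chosen by measured values, the width and overlap of the H3K27ac peaks of the Smad3PA/PA cells. The rule kept 387 of 21336 merged regions. Of the rest, 19688 regions were 2 kb or wider and met a GDF9 peak (called wide below), and 31 were narrow and met none. A further 9 regions outside the assembled chromosomes were left out, of which 2 would have passed the rule.

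The groups were granulosa cells given GDF9, an oocyte-secreted ligand of the TGF-beta family, for 4 h and cells treated with vehicle. They came from gonadotropin-primed immature females of 2 knock-in lines, Smad3PA/PA (PA tag on both copies of SMAD3) and Smad2HA/+ (HA tag on a single copy of SMAD2), pooled over several mice and cultured before treatment, so that no group held untagged mice and both treatments had seen gonadotropin. CUT&RUN, in which an antibody directs a nuclease to cut DNA beside its target, was run with 2 libraries for each line, antibody and treatment: H3K27ac, SMAD2, SMAD4 and PA in Smad3PA/PA cells, and H3K27ac, SMAD2, SMAD3 and HA in Smad2HA/+ cells. RNA-seq had 2 GDF9 and 2 vehicle libraries. Their labels carry no genotype, and the study's text gives Smad3PA/PA.

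H3K27ac is acetylation of lysine 27 of histone H3, placed on nucleosomes beside active promoters and enhancers. Broad stretches of the mark often cover genes that define a cell type, and narrow ones cover single elements or a weakly marked start site. Ligands such as GDF9 lead to phosphorylation of SMAD2 and SMAD3, which join SMAD4 and bind DNA, usually with other factors such as AP-1. SMAD proteins recognise the short sequence CAGAC and some GC-rich variants of it.

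The first sequences are shown because the regions with the highest H3K27ac signal shared stretches of DNA. They are from the mm10 build (GRCm38.p6, as given by RefSeq), plus strand, 5′ to 3′. Capitals mark 99 bases that were identical between the region with the highest signal, on chromosome 2, and a narrow region on chromosome 12.
chr2:98666886-98667024: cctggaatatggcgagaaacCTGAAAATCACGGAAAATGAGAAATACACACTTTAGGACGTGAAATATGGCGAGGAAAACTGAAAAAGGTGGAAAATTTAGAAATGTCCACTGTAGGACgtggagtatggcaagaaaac
chr12:3109857-3109991: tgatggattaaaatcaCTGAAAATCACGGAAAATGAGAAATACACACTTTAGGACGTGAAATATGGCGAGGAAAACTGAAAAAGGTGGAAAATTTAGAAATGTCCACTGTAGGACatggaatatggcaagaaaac
The same chromosome 2 region shared another 77 bases, in capitals, with a narrow region on chromosome 6.
chr2:98666279-98666395: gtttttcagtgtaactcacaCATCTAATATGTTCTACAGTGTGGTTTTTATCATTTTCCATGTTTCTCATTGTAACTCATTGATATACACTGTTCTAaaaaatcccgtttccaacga
chr6:103649183-103649299: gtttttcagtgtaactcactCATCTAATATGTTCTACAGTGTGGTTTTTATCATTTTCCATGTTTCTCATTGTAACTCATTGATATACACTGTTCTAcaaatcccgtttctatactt

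The next sequences show the middle of 3 narrow regions at gene starts. Capitals mark every match to 11 of the motifs listed with the composition results. Srrm2 and Creb3l1 are shown because their RNA passed the test between treatments, and Mon1b because its region met 7 of the 12 SMAD lists of Smad3PA/PA cells. The capitals are GGCGCC in Srrm2, an E-box (CACGTG) in Creb3l1, and 2 SP/KLF matches (GGGCGG or CCGCCC), 2 NF-Y matches (CCAAT or ATTGG) and 1 SMAD match (GTCTG) in Mon1b.
Srrm2, chr17:23790505-23790745: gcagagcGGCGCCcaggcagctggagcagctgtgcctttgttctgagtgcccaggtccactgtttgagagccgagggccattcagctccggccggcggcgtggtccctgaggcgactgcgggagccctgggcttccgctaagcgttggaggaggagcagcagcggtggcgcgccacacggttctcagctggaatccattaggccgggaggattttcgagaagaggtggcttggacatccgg
Creb3l1, chr2:92023829-92024069: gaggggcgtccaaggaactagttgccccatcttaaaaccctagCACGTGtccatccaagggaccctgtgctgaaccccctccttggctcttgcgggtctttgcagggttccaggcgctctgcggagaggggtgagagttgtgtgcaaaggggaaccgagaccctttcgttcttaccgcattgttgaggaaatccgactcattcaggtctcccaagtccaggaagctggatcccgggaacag
Mon1b, chr8:113635406-113635646: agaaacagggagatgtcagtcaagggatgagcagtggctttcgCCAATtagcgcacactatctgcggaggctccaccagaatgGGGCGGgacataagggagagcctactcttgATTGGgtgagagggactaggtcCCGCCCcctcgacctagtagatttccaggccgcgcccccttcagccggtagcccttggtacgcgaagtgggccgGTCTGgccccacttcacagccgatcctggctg

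The last set shows AP-1 matches (TGANTCA) in the 3 distal narrow regions of highest vehicle signal that held one near their middle, apart from the 15 regions described next. Capitals mark AP-1 and SMAD (CAGAC or GTCTG) matches. In the chromosome 14 region the AP-1 match and a CAGAC shared 2 bases.
chr2:131392960-131393080: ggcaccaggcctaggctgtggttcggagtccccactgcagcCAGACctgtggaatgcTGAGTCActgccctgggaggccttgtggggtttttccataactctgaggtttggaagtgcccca
chr6:39447573-39447693: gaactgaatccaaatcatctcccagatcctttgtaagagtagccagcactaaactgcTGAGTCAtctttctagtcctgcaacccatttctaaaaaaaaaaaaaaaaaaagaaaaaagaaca
chr14:21312288-21312408: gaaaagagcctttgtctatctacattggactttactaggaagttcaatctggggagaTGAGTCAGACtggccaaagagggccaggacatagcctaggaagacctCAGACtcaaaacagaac

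A few very tall regions stood in the set beside a large, even remainder. Widths ran from 298 to 1999 bp with a median of 1858 bp, and the middle 50% lay between 1670 and 1945 bp. Wide regions had a median of 4502 bp. The width limit therefore took the lower edge of a continuous distribution: 10 regions were under 1 kb, 38 were of 1 to 1.5 kb and 339 were of 1.5 to 2 kb. Just inside the limit 4 regions were 1999 bp wide, near Tbcd, Fam198b, Mir6403 and Gm15511, with maximum signals of 15.7, 22.9, 14.5 and 9.65 in vehicle replicate 1. Just outside it, regions of 2000, 2001 and 2002 bp near Tnk2os, Acta2 and Tnfaip3 had 21.7, 10.9 and 12.1. Other regions were also 2002 bp wide, and the one near Tnfaip3 came first in the order of chromosomes.

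The signal is fragment coverage scaled to E. coli spike-in reads, and the maximum signal of a peak is its highest point. In every H3K27ac list of Smad3PA/PA cells the maximum signal was a whole multiple of 1 step within a tolerance of 0.05 steps, and that step was taken as 1 fragment. The median narrow region then topped out at 13 fragments in each GDF9 library, and at 13 and 15 fragments in the vehicle libraries. A count of 13 has an exact 95% Poisson interval of 6.92 to 22.2, so differences in height between single regions were mostly not detectable at this depth. The intervals cover counting error only. Wide regions topped out at about the same height, 14 and 13 fragments in the GDF9 libraries and 13 and 15 in the vehicle libraries. A peak had to reach a minimum total signal to be listed at all (7975 and 12634 in the GDF9 lists, 8922 and 12259 in the vehicle lists), so a narrower peak had to be taller to appear.

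The rule asked for a GDF9 peak in at least 1 of the 2 libraries, and 282 narrow regions (72.9%) met a peak in both, against 85.5% of wide regions. The GDF9 peaks at narrow regions had median widths of 1986 and 1935 bp, and 49.7% and 48.3% of them were 2 kb or wider. Over the 282 regions the log2 ratio of maximum signal, GDF9 over vehicle, had a median of -0.02 with the middle 50% between -0.17 and 0.17. Over wide regions it had a median of 0.04. The rule used these libraries, so no test was made.

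Of the 387 narrow regions, 15 (3.88%) met a peak in all 12 SMAD lists of Smad3PA/PA cells, against 31 wide regions (0.157%). All 15 also met all 12 SMAD lists of Smad2HA/+ cells. They included all 10 regions under 1 kb and 4 of the 38 regions of 1 to 1.5 kb, and their median width was 745 bp. Their maximum H3K27ac signal ran from 23.7 to 74016 in GDF9 replicate 1, from 30.4 to 125751 in GDF9 replicate 2, from 20.5 to 83618 in vehicle replicate 1 and from 21.7 to 120324 in vehicle replicate 2. The other 372 narrow regions reached at most 36.2 in GDF9 replicate 1, 53.7 in GDF9 replicate 2, 31.4 in vehicle replicate 1 and 52.0 in vehicle replicate 2, so that the lowest of the 15 lay within their range in each library. In the plot of width against signal the remaining 372 regions form a flat band at the right.

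**Figure D1:**
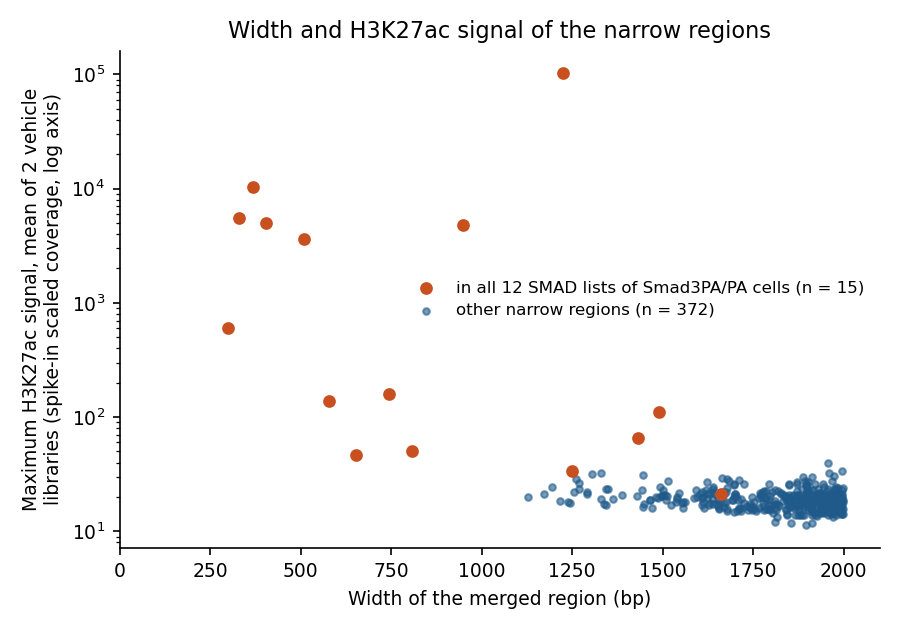
Each point is 1 of the 387 narrow H3K27ac regions, with its width in bp on the x axis and its maximum H3K27ac signal, as the mean of the 2 vehicle Smad3PA/PA libraries in spike-in scaled coverage, on a log y axis. The 15 regions that met a peak in all 12 SMAD lists (orange) reach a mean of 101971 and include every region under 1 kb, and the other 372 (blue) are between 1127 and 1999 bp wide.

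The region with the highest signal, chr2:98666120-98667343, overlaps the start of the predicted gene Gm10800. Its maximum H3K27ac signal was 74016 and 125751 with GDF9, against 83618 and 120324 with vehicle. It is 1 of 4 narrow regions in a cluster between 98662055 and 98667343 on chromosome 2, at the predicted genes Gm10800 and Gm10801. Its maximum signal was also high with every other antibody of the same line, 236001 and 398365 in the SMAD2 GDF9 libraries, against 341873 and 220270 in the SMAD2 vehicle libraries. The median SMAD2 peak had a maximum of 1.08 and 1.67 in those GDF9 lists, against 1.27 and 3.78 in those vehicle lists.

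Next came chr12:3109857-3110223, with 7483 and 12634 in the GDF9 libraries and 8594 and 11870 in the vehicle libraries. The regions chr6:103648969-103649299, chr9:35305200-35305603 and chr2:98662055-98663002 lay between 3526 and 6301 in all 4 libraries. Against the chromosome 2 region with the highest signal, the longest identical stretch on the same strand was 115 bases in chr9:35305200-35305603, 99 bases on chromosome 12 and 77 bases on chromosome 6, as printed above for the last 2. On chrX:143482885-143483182, 35409 bp from the start of Pak3, it was 46 bases. The lowest of the 15, chr9:124256321-124257982, had 23.7 and 30.4 in the GDF9 libraries and 20.5 and 21.7 in the vehicle libraries, with repeats masked over 80.2% of its bases.

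Repeated sequence was frequent among the 15. The share of 20-base words that occur once in the assembly had a median of 49.9% in them, against 91.4% in the other 372. At least 50 such words were shared with another narrow region in 8 of the 15, against 29 of the 372. Masked repeats covered a median of 30.5% of their bases, against 16.9% in the others. No word was shared with the mitochondrial genome in any of the 387. Only uniquely mapped reads entered the spike-in normalization, as the study's methods state, and how the peak lists treated reads from repeats was not tested. Whether the 15 regions were acetylated or bound by SMAD proteins was not tested either, and IgG libraries were not analysed here. Of the 15 regions, 7 (46.7%) met no H3K27ac peak in any Smad2HA/+ library, against 27 of the 372 others (7.26%). The comparisons of SMAD peaks are given with and without these 15 regions. Comparisons of narrow with wide windows without them also leave out the 31 wide regions of the same kind.

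Narrow regions lay away from genes more often than wide ones. A gene start was within 3 kb of 147 of the 387 (38.0%, Wilson 95% interval 33.3% to 42.9%), against 45.7% of wide regions, and a start lay inside 29.5% of narrow and 39.6% of wide regions. The interval treats the regions as independent draws, though they are not replicates, and is no test against wide regions. The middle was intergenic in 35.9% of narrow and 16.9% of wide regions, intronic in 50.9% and 66.6%, and exonic in 13.2% and 16.5%. The median distance to the nearest start was 7847 bp for narrow and 4756 bp for wide regions. The length alone gives a wide region more room to hold a start. The next wide region was a median of 17451 bp away, and 33.3% of narrow regions had one within 10 kb. Regions were on all 19 autosomes and the X chromosome, with 34 on chromosome 2, 30 on chromosome 1 and 4 on the X chromosome.

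The middle of narrow regions was rich in GC. In 0.4 kb centre windows the median GC content was 48.6% in narrow and 45.4% in wide regions, and the ratio of observed to expected CpG was 0.298 in narrow and 0.226 in wide regions. Windows centred 2 kb from the middle had GC contents of 44.1% for narrow and 43.9% for wide regions. Wide regions had a median width of 4502 bp, so many of their windows still lay inside the region. Narrow regions within 3 kb of a gene start had 53.4% GC, and distal ones 47.1%.

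Motifs were counted as exact letters on either strand: AP-1 TGANTCA, SMAD CAGAC, SMAD palindrome GTCTAGAC, GC-rich SMAD GGCGCC, NR5A CAAGGTCA, GATA factors AGATAA, forkhead TGTTTAC, RUNX TGTGGT, TEAD GGAATG, CRE TGACGTCA, ETS CCGGAAG, SP/KLF GGGCGG, NRF1 GCGCATGCG, YY1 AAGATGGCG, NF-Y CCAAT, CTCF CAGNGGGCG and E-box CACGTG. The SP/KLF and CTCF letters can overlap, and AP-1 and SMAD letters can share bases as above. An AP-1 match was in 20.7% of narrow windows (80 of 387, 95% interval 16.9% to 25%) and in 16.1% of wide windows. It was in 10.6% of flanking windows, which were centred 2 kb from the middle of narrow regions. Most AP-1 matches were distal: 26.7% of distal narrow windows and 20.1% of distal wide windows held one, against 10.9% and 11.3% at gene starts. SP/KLF matches, typical of CpG-rich promoters, were in 19.4% of narrow (95% interval 15.8% to 23.6%), 14.4% of wide and 5.17% of flanking windows, and at gene starts in 33.3% of narrow and 24.4% of wide windows.

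GGCGCC was in 9.82% of narrow, 5.43% of wide and 1.81% of flanking windows. It was in 7.08% of distal narrow windows and 1.66% of distal wide ones. The plain SMAD motif, which is short, was in 66.9% of narrow, 61.2% of wide and 60.2% of flanking windows. ETS matches at gene starts were in 11.6% of narrow and 6.28% of wide windows. The motifs of granulosa factors were no more frequent in narrow windows: NR5A 3.36% against 3.99% in wide windows, GATA 19.6% against 21.6% and forkhead 4.91% against 6.18%. Around the highest-signal stretch instead of the middle, AP-1 was in 23.5% of narrow and 20.2% of wide windows. SP/KLF was in 20.7% and 18.2% there, and GGCGCC in 9.04% and 7.78%, so the gaps depended on where the window was put. These shares are descriptions and were not tested. The intervals given for AP-1 and SP/KLF treat regions as independent draws, though they are not replicates, and are no test against wide windows.

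**Figure D2:**
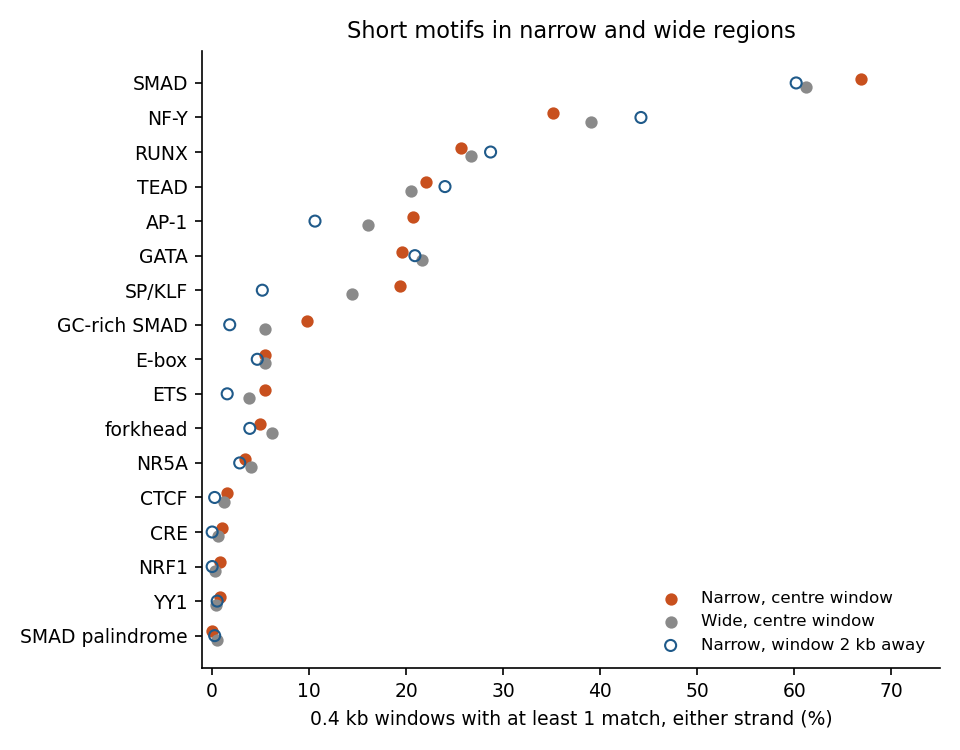
For each of 17 short motifs, the x axis gives the share of 0.4 kb windows with at least 1 match on either strand. Windows were at the middle of the 387 narrow regions (orange) and at the middle of the 19688 wide regions (grey). Open blue points are windows centred 2 kb from the middle of narrow regions, 1 per region with the side taken in turn. AP-1, SP/KLF and GC-rich SMAD stand to the right of both other points, with 20.7%, 19.4% and 9.82% in narrow regions. So do the plain SMAD motif, ETS, CRE, NRF1, YY1 and CTCF.

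Apart from the 15 regions, most narrow regions met SMAD peaks in 4 or fewer libraries of Smad3PA/PA cells. Of the 387 narrow regions, 89 (23%) met none of the 12 SMAD lists, against 13.0% of wide regions, 264 met 1 to 4 lists (77 met 2, 49 met 3 and 35 met 4), 18 met 5 to 8, 1 met 11 and 15 met all 12. No narrow region met 9 or 10. Wide regions offer more bases for a peak to meet. In Smad2HA/+ cells, whose SMAD lists cover far more of the same regions, 4 narrow regions met no list and 104 met all 12.

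**Figure D3:**
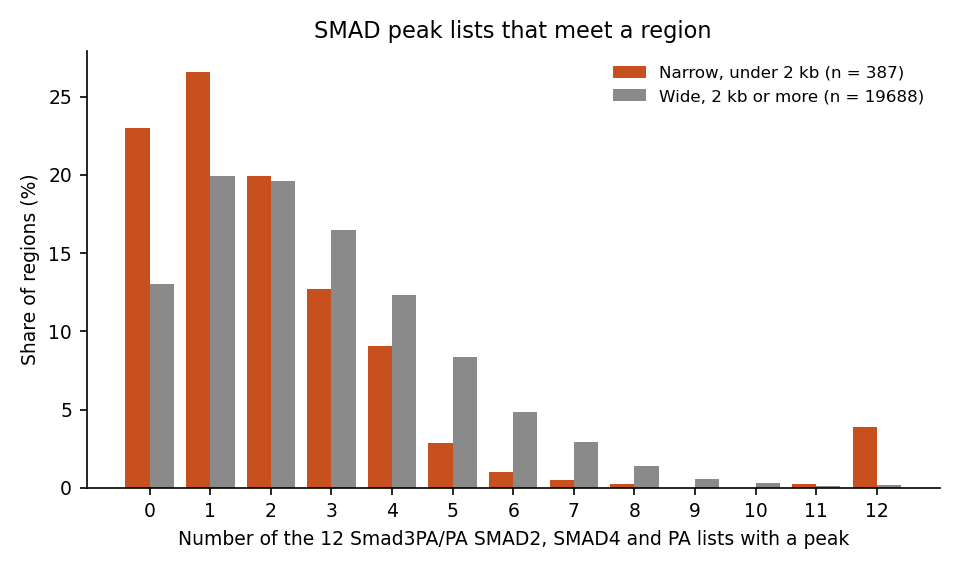
The x axis counts how many of the 12 SMAD2, SMAD4 and PA peak lists of Smad3PA/PA cells meet a region, and the y axis gives the share of the 387 narrow (orange) and 19688 wide (grey) regions. Narrow regions fall off to 0.258% at 8 lists and come back at 12 lists, with 3.88% against 0.157% of wide regions.

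The 1 region with 11 lists, chr14:21311645-21313439, lay in an intron on chromosome 14, nearest to the start of Gm26372. It met both GDF9 and both vehicle lists of PA and of SMAD4, with SMAD2 in both GDF9 libraries and 1 vehicle library. Its maximum H3K27ac signal was 15.8 in GDF9 replicate 1, with no peak in GDF9 replicate 2, against 28.9 and 23.1 in the vehicle libraries. Its sequence, printed above, holds an AP-1 match that runs into a SMAD match. It was the only narrow region outside the 15 with a PA peak in both libraries of either treatment.

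The other regions with the most SMAD lists were at gene starts, in introns or intergenic. The region with 8 lists, chr8:20423867-20425862, overlaps the start of 2610005L07Rik, with only 10.3% of its 20-base words single in the assembly. Mon1b, which helps activate the endosomal GTPase RAB7, and Gm28198 had 7 lists each. At both of them SMAD4 was met in all 4 libraries, and SMAD2 in both GDF9 libraries and 1 vehicle library. Acy1, an aminoacylase, Ccdc80, a secreted matrix protein, 4930413F20Rik and Wnt10a, a WNT ligand whose start lay 24877 bp away, had 6 lists each.

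To set narrow beside wide regions without the difference in length, peaks were counted in the same 0.4 kb centre windows. Narrow windows met a SMAD peak more often in all 12 libraries of Smad3PA/PA cells, by a mean of 7.72 percentage points ± 4.54 (SD, n = 12, exact sign-flip permutation test over libraries, two-sided, p = 0.000488, the smallest these libraries can give). The libraries share regions and pooled cells, so the p describes how evenly the difference ran across libraries and not a sampling of regions. Without the 15 regions and their wide counterparts the mean was 4.67 points, higher in 11 of 12 libraries (exact permutation p = 0.00146). With windows on the highest-signal stretch as well, it was 2.22 points, higher in 10 of 12 (exact permutation p = 0.00928).

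The difference was widest for SMAD4, the partner that SMAD2 and SMAD3 share. SMAD4 peaks met 29.7% and 30.0% of narrow windows in the GDF9 libraries and 28.7% and 20.7% in the vehicle libraries, while wide windows had 15.9% and 13.0% in the GDF9 libraries and 16.6% and 12.3% in the vehicle libraries. Every narrow value lay above every wide value. Without the 15 regions the narrow windows had 27.2%, 27.4%, 26.1% and 17.7% in the same order, and the mean difference was 10.2 points, against 12.8 points with them. With the highest-signal stretch as well it was 5.33 points.

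For SMAD2 the mean difference was 6.42 points, and without the 15 regions 3.25 points, higher in 3 of 4 libraries. The list that went the other way was SMAD2 vehicle replicate 2, which stands apart with 23082 peaks, against 78699 to 81283 in the other SMAD2 lists. Without this library the mean over the remaining 11 libraries was 8.13 points. For PA-tagged SMAD3 the difference was 3.95 points with the 15 regions and 0.517 points without them. With 4 libraries each the smallest exact p is 0.13, so no antibody was tested against another.

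**Figure D4:**
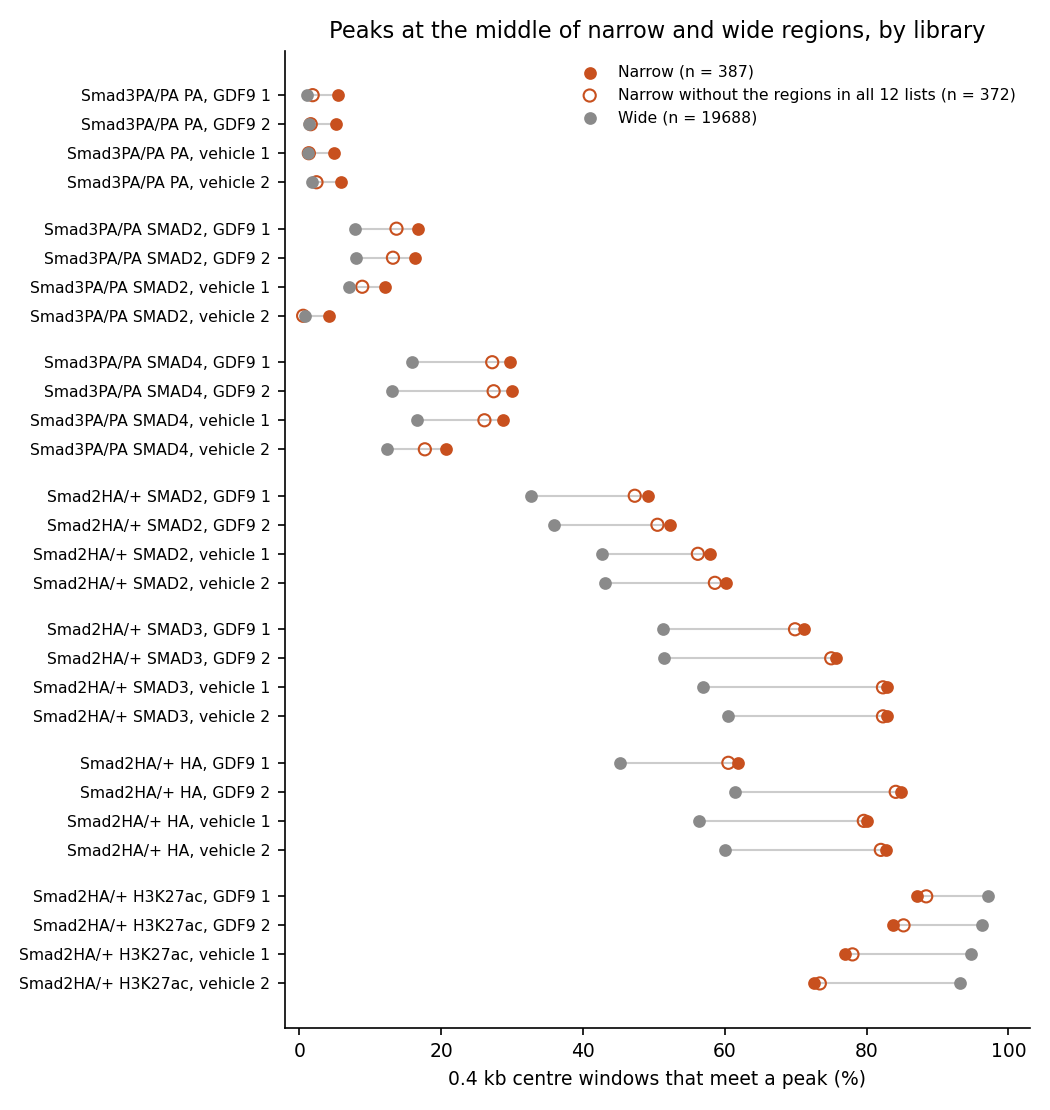
Rows are the 28 libraries that the rule did not use, and the x axis gives the share of 0.4 kb centre windows that meet a peak of that library, for narrow regions (orange), narrow regions without the 15 in all 12 lists (open orange) and wide regions (grey). SMAD points of narrow regions lie to the right of wide ones in all 24 SMAD libraries, and H3K27ac points of Smad2HA/+ cells lie to the left in all 4.

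Regions with replicated SMAD4 peaks were described further. Outside the 15, 51 narrow regions met SMAD4 in both GDF9 libraries, 46 in both vehicle libraries and 19 in all 4, and 131 met none. Among the 51, 31.4% held an SP/KLF match and 19.6% an AP-1 match, and among the 131 15.3% and 21.4% did. A plain SMAD match was in 66.7% of the 51 and 62.6% of the 131. GGCGCC was in 9.80% and 8.40%, and an ETS match in 5.88% and 6.11%. Gene starts lay within 3 kb of 35.3% of the 51 and 37.4% of the 131.

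In Smad2HA/+ cells narrow windows met a SMAD peak more often than wide ones in 12 of 12 libraries, by a mean of 20.3 points ± 3.85 (SD, n = 12, exact sign-flip permutation test, two-sided, p = 0.000488). Without the 15 regions the mean was 19.3 points, and with windows on the highest-signal stretch 9.58 points. Against wide regions of 2 to 3 kb only, it was 8.81 points in this line and 4.89 points in Smad3PA/PA cells. At the highest-signal stretch the mean share over the libraries of Smad3PA/PA cells was 100% for the 10 regions under 1 kb, all of them among the 15, and 22.4% for the 38 regions of 1 to 1.5 kb, which hold 4 of the 15. It was 11.8% at 1.5 to 2 kb, 10.7% at 2 to 2.5 kb and 9.36% above 10 kb. The difference at the middle of a region thus fell when widths were close or windows followed the signal.

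Next, the share of narrow regions with a SMAD peak was compared between GDF9 and vehicle for each antibody and line. None of the 6 comparisons could pass a threshold of 0.05, since 2 libraries against 2 cannot give an exact permutation p below 0.333. In Smad3PA/PA cells SMAD2 peaks met 20.2% and 21.4% of narrow regions with GDF9, against 15.2% and 5.68% with vehicle, a difference of 10.3 points (exact permutation p = 0.333, adjusted p = 0.667 over 6). The groups did not overlap. Without vehicle replicate 2, the short list, the difference was 5.56 points, and with lists cut to equal length it was 2.58 points. Wide regions had a difference of 11.3 points. SMAD4 met 33.6% and 33.9% with GDF9, against 33.6% and 25.6% with vehicle, and PA met 6.98% and 6.46% with GDF9, against 5.17% and 8.27% with vehicle. Without vehicle replicate 2 the SMAD4 difference of 4.13 points was 0.129 points. For PA the 2 treatments had the same mean, 6.72%. Without the 15 regions the differences were 10.8 points for SMAD2, 4.30 points for SMAD4 and 0 for PA.

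In Smad2HA/+ cells the values lay the other way. SMAD2 met 53.0% and 55.6% of narrow regions with GDF9, against 60.5% and 61.2% with vehicle, a difference of -6.59 points. Peaks in these SMAD2 lists had median widths of 1326 and 1334 bp with GDF9, against 1691 and 1687 bp with vehicle. The part of peak width in the difference was not tested. SMAD3 met 72.9% and 79.1% with GDF9, against 84.5% and 84.2% with vehicle, a difference of -8.40 points, or -5.30 without GDF9 replicate 1. Neither pair of groups overlapped (exact permutation p = 0.333 for each). HA met 63.0% and 86.0% with GDF9, against 83.5% and 85.3% with vehicle, a difference of -9.82 points that rested on GDF9 replicate 1 and was 1.68 points without it. Without the 15 regions the differences for SMAD2, SMAD3 and HA were -6.85, -8.74 and -10.2 points, and in wide regions they were -5.35, -6.24 and -5.21 points.

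Single narrow regions with replicated GDF9 peaks and no vehicle peak were few. For SMAD2 of Smad3PA/PA cells there were 11 of 387 (2.84%), against 4.45% of wide regions, and for SMAD4 also 11 (2.84%), against 4.19% of wide regions. The reverse, a peak in both vehicle libraries and none with GDF9, was found for SMAD4 at 15 of 387 narrow and 698 of 19688 wide regions. In narrow regions that was more than the 11 with GDF9 alone, and the counts were not tested. For SMAD2 the reverse was found at 0 narrow regions. Only the regions in all 12 lists met both SMAD2 vehicle lists, so this 0 was fixed beforehand. Vehicle replicate 2 of SMAD2 was the short list, with 23082 peaks, and a short list leaves more regions without a vehicle peak. No region was in both GDF9 sets. They are named here after their values were seen. The SMAD2 set held the start of Hist1h3e, a histone H3 gene, and of Diaph1, an actin-nucleating formin, introns near Ccdc80 and Atg4c, an autophagy protease, and intergenic regions nearest to Mtmr3, a phosphoinositide phosphatase, and Rgs2, a regulator of G protein signaling 101816 bp away. At Hist1h3e the SMAD2 maximum was 1.51 and 2.33 in the GDF9 libraries, where the medians of all peaks in those lists were 1.08 and 1.67. At Atg4c it was 0.863 and 1.00, below both medians. The SMAD4 set held the start of Copg2, a coatomer subunit, a region 1799 bp from Mtmr6, an intron of Ctnna3, which encodes an alpha-catenin, and an exon nearest to Adar, an RNA-editing enzyme. At Copg2 the SMAD4 maximum was 2.26 and 2.54, where the list medians were 1.41 and 2.54. The chromosome 6 region printed above for its AP-1 match was also in the SMAD4 set, with 2.54 and 4.45. AP-1 matches were in the centre windows of 4 of the 11 SMAD4 regions and 2 of the 11 SMAD2 regions. Of all 387 narrow windows 20.7% held one, and counts this small were not tested.

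The mark itself was looked at in Smad2HA/+ cells, a line the rule did not use. Narrow windows met an H3K27ac peak there in 87.1% and 83.7% of cases with GDF9 and 77.0% and 72.6% with vehicle, while wide windows lay between 93.2% and 97.1% in the same 4 libraries. The mean difference was -15.2 points ± 4.82 (SD, n = 4, lower in 4 of 4 libraries, exact sign-flip permutation p = 0.13, the smallest possible with 4). Against wide regions of 2 to 3 kb it was -6.09 points. Peaks of that line are long, with median widths of 29367 and 28038 bp with GDF9 and 36905 and 46306 bp with vehicle where they met narrow regions. Their highest stretch lay inside the narrow region in 53.1% and 51.9% of cases with GDF9 and 47.0% and 44.8% with vehicle, so that the signal of such a peak was often that of a neighbour.

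H3K27ac signal did not pass the test between treatments at any narrow region that could be tested. A peak in each of the 4 Smad2HA/+ lists was required, which 257 of 387 narrow regions had, within 19138 regions tested with limma. These regions drew on 7437 distinct peaks in vehicle replicate 1 and 8012 in GDF9 replicate 1. Regions under the same long peak shared its value, so the counts below are not counts of independent tests. Over all regions 75 were called at an adjusted p under 0.05 (0.392%), and of the 257 narrow ones 0 were. At an unadjusted p under 0.05 there were 29 (11.3%), against 11.6% of all regions tested, so the narrow regions were near the background. On total instead of maximum signal, limma called 4 of the 257, all lower with GDF9. Over all 19138 regions it then called 323, of which 34 were higher with GDF9, so the narrow regions were again near the background. On maximum signal the median log2 fold change, GDF9 over vehicle, was 0.07 at narrow and 0.09 at wide regions. With 1 library left out at a time, it lay between 0.04 and 0.11 at narrow regions. At wide regions it then lay between 0.06 and 0.12.

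Genes were assigned to a narrow region when it was the H3K27ac region nearest to their start and at most 3 kb away. There were 180 such genes at 138 regions, 121 of them protein-coding, and 126 were in the RNA table. Psmc3 (proteasome), Cox6b1 (respiration), Sec11a (secretion) and Timm22 (mitochondrial import) were among them. Of 206 genes in 12 lists (granulosa identity, SMAD2/3 pathway, cumulus expansion, immediate early, steroid and cholesterol synthesis, cell cycle, DNA repair, general transcription, mitochondrial and cytosolic ribosome, matrix and cytoskeleton, other ovarian cells) 0 had a narrow region nearest to the start, 147 had a wide one, 53 had none and 6 had a region of another kind. Of all genes with RNA values, 126 had a narrow region against 9270 with a wide one, so that a count of 0 in lists of this size is near the background and is not a result about the narrow regions. Of the 206 genes 191 were tested, and 24 passed the RNA test, 18 higher and 6 lower with GDF9. Over all 12597 tested genes 396 passed (3.14%). The lists were chosen with earlier results of these data known, so the 24 are no support for them. Of the granulosa markers 16 of 19 had a mean of at least 10 normalized counts, while Lhcgr, Amh and Cyp19a1 were under it. Of 16 markers of other ovarian cells 8 reached it, with summed levels of 528 and 534 in the GDF9 libraries and 452 and 526 in the vehicle libraries, against 44318 and 44342, and 43833 and 44750, for the granulosa list. The part of other cells in the RNA results was not tested.

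RNA levels of these genes were compared with those of genes at wide regions. In bulk RNA, fewer cells of a type and less RNA per cell cannot be told apart. Per kb of exon the median normalized count of genes with a narrow region was 66.2 and 61.2 with GDF9 and 64.7 and 64.9 with vehicle, while genes with a wide region had 82.5 and 83.0 with GDF9 and 82.4 and 81.7 with vehicle. The differences of the log2 medians were -0.32, -0.44, -0.35 and -0.33, lower in 4 of 4 libraries (exact sign-flip permutation test, two-sided, p = 0.13, the smallest possible). The mean of these differences was -0.36, and -0.72 without division by exon length. A mean under 10 was found for 10.3% of genes with a narrow region and 12.1% of those with a wide one. Among protein-coding genes, 9.09% with a narrow and 14.1% with a wide region had an opposite coding start within 1 kb upstream.

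Of 113 tested genes with a narrow region, 2 were called in the RNA comparison (1.77%), both higher with GDF9. Over all 12597 tested genes 396 were called (3.14%), 307 of them higher (2.44%), and of the genes with a wide region 283 of 8146 (3.47%). A share this near the background is not a result about the narrow regions. The 2 genes were Srrm2 and Creb3l1. With 1 library left out at a time, the log2 fold change of Srrm2 lay between 0.34 and 0.50. That of Creb3l1 lay between 0.29 and 0.35. Genes were called by limma on log2(value + 1) where the adjusted p was under 0.05 and the log2 fold change passed 0.18 or -0.18. The RNA replicates are not described as separate animals, so p-values measure the spread between these libraries. Assigned reads numbered 10146695 and 10517816 in the GDF9 libraries, and 8827825 and 11416005 with vehicle.

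Srrm2, a scaffold protein of nuclear speckles and of the spliceosome, had 7355 and 6588 normalized counts with GDF9, against 5255 and 5149 with vehicle. Both GDF9 libraries lay above both vehicle libraries. Its log2 fold change was 0.42 (SE 0.04, limma adjusted p = 1.82e-08). Its narrow region, chr17:23789648-23791602, spans the start of the gene and met 0 SMAD lists of Smad3PA/PA cells and 6 of Smad2HA/+ cells. The H3K27ac maximum there was 19.7 in GDF9 replicate 2, with no peak in GDF9 replicate 1, against 13.3 and 20.2 in the vehicle libraries.

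Creb3l1 encodes a membrane-bound transcription factor of the endoplasmic reticulum that is cut free to enter the nucleus and activates genes of secretion and collagen. It had 1453 and 1408 normalized counts with GDF9, against 1124 and 1166 with vehicle, with no overlap. Its log2 fold change was 0.32 (SE 0.05, limma adjusted p = 0.000104). Its region, chr2:92022976-92024921, spans the start and met 1 SMAD2 list (GDF9), 2 SMAD4 lists (1 of each treatment) and no PA list of Smad3PA/PA cells. The H3K27ac maximum was 21.5 and 30.4 with GDF9, against 15.7 and 33.2 with vehicle, so the groups overlapped.

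The other genes did not pass. Mbp, myelin basic protein, had 2247 and 2111 normalized counts with GDF9 and 2137 and 2105 with vehicle, and Psmc3, an ATPase of the proteasome, had 1599 and 1803 with GDF9 and 1782 and 1766 with vehicle. Cox6b1, a subunit of cytochrome c oxidase, had 1601 and 1694 with GDF9 and 1622 and 1671 with vehicle. The groups overlapped for all 3. Sec11a, of the signal peptidase, had 710 and 737 with GDF9 and 781 and 755 with vehicle, and Timm22, of the mitochondrial import machinery, 300 and 353 with GDF9 and 336 and 355 with vehicle. Mon1b had 370 and 353 with GDF9 and 349 and 368 with vehicle. Mbp, Psmc3, Cox6b1 and Mon1b are named after their values were seen.

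Bmp6, a BMP ligand of the TGF-beta family and also named after its values were seen, had 578 and 555 normalized counts with GDF9, against 528 and 498 with vehicle, and its log2 fold change of 0.14 (SE 0.07) had a limma adjusted p of 0.313. Its narrow region, chr13:38346761-38348690, lay 1654 bp from the start and had an H3K27ac maximum of 23.7 and 37.6 with GDF9, against 18.1 and 28.9 with vehicle. Acy1 had 102 and 134 normalized counts with GDF9, against 76.9 and 92.1 with vehicle, and a log2 fold change of 0.47 (SE 0.16, limma adjusted p = 0.113). Over the 113 genes log2 fold changes ran from -0.69 to 0.63, and the widest were of genes with few counts, as the plot against the mean shows.

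**Figure D5:**
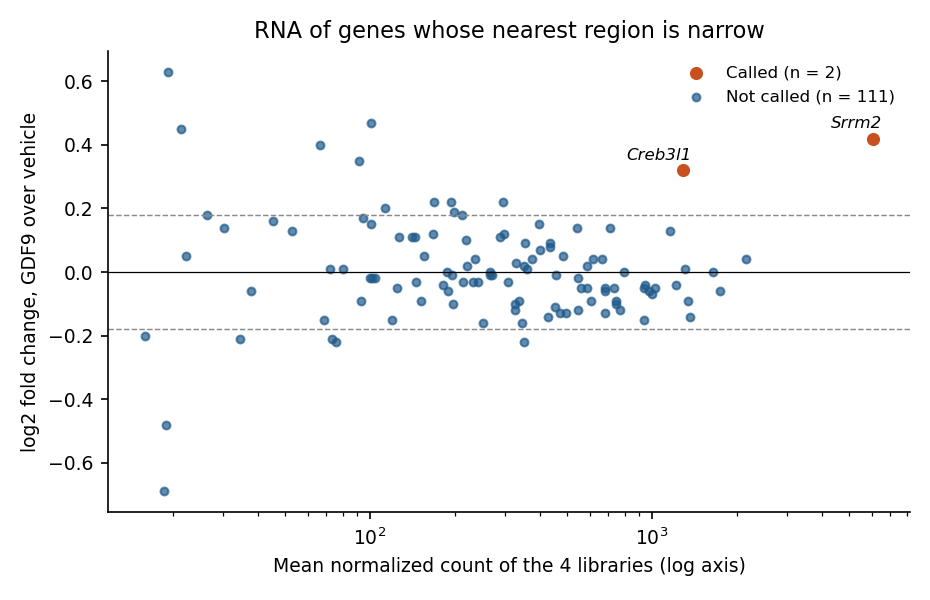
Each point is 1 of the 113 tested genes whose nearest H3K27ac region is narrow, with the mean normalized count of the 4 RNA-seq libraries on a log x axis and the log2 fold change, GDF9 over vehicle, on the y axis; dashed lines mark 0.18 in either direction. The 2 called genes, Srrm2 at 0.42 and Creb3l1 at 0.32 (orange), are among those with the most counts, and the 111 others (blue) were not called.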

How the data were processed

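The authors mapped CUT&RUN reads to mm10 with Bowtie2, scaled coverage to E. coli spike-in fragments and called peaks with SEACR for each library. The deposited peak lists give the total and maximum signal of each peak. RNA-seq reads were aligned with STAR 2.7.11b, counted with featureCounts 2.1.1 and deposited by the authors as normalized counts, that is, a signal made by dividing reads by 1 size factor per library. No source used here gives the strand setting, the annotation for counting or the peak control. Values were whole multiples of 1 step per library (100% of values within 0.05 reads), from which reads were recovered. A column with the authors' mean was not tested, 3 unheaded columns were left out, and IgG libraries were not analysed here. Of 27179 table rows, 1314 had no value per library, and 97.3% of genes with values matched GENCODE vM21.

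Peaks were merged, and positions, repeats and motifs read, in Python 3.11.15 (pandas 2.3.3, scipy 1.17.1) on GRCm38.p6; no peak passed a chromosome end. RNA-seq (mean of at least 10, offset 1) and Smad2HA/+ H3K27ac (log2 of maximum signal) were fitted in R 4.3.3 with limma 3.58.1, without covariates, with Benjamini-Hochberg adjustment over all features. edgeR 4.0.16 and DESeq2 1.42.0 on recovered reads were alternatives. The limma and edgeR fits of RNA were tested on simulated data, and the DESeq2 fit was not. RNA replicates differed by more than sampling noise (chi-square per gene 1.97 for GDF9 and 1.31 for vehicle).

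The members, gene lists, motifs and tests were chosen with earlier results of these data known. Regions were named by rule: the 5 gene-start and 5 distal regions of highest vehicle signal, those at called genes, those with the most SMAD lists and the 3 on either side of the width limit. Because the 15 regions in all 12 SMAD lists filled most of these places, the same was done without them, and other names are marked where they stand. Leaving out those 15 regions, SMAD2 vehicle replicate 2, wide regions over 3 kb or noncoding genes was chosen after seeing the data.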

Additional observations from a re-analysis of the deposited data

Results flagged for a closer look

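The change in the SMAD2 share of narrow regions with GDF9 differed in direction between the lines, and so did that of wide regions. It was 10.3 points higher with GDF9 than with vehicle in Smad3PA/PA cells, where both GDF9 libraries lay above both vehicle libraries, and the difference was -6.59 points in Smad2HA/+ cells, where both lay below. The difference between the lines was not tested. In Smad3PA/PA cells the SMAD2 vehicle replicate 2 list was the short one, with 23082 peaks, and without it the difference there was 5.56 points. With lists cut to equal length the difference in Smad3PA/PA cells was 2.58 points, and that in Smad2HA/+ cells was -8.01 points. The SMAD2 GDF9 lists of Smad2HA/+ cells held shorter peaks than the vehicle lists, with the median widths given above. At wide regions the difference was 11.3 points in Smad3PA/PA cells and -5.35 points in Smad2HA/+ cells. Over all regions it was 10.8 and -5.21 points, so the opposite directions were not particular to narrow regions.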

How the results depend on the processing

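Of the changes in SMAD share with GDF9, only that of HA in Smad2HA/+ cells turned round, from -9.82 points to between -21.3 and 1.68 points when 1 library at a time was left out (1.68 without GDF9 replicate 1). The count of called genes, 396, was 187 with no filter on low values, 133 with DESeq2 (7327 genes had no adjusted p), 406 with edgeR, 535 with the replicate block and 215 to 583 with 1 library left out. Of genes with a narrow region 2 to 6 were called with 1 library left out, and in every setting Srrm2 and Creb3l1 were among them. Called H3K27ac regions of Smad2HA/+ cells, 75, were 323 on total signal, 0 with the replicate block, and 0 to 97 with 1 library left out, 0 of them without vehicle replicate 1 or 2. Numbers did not pair the libraries (correlation of deviations 0.00502 for RNA and -0.0123 for H3K27ac). The share of narrow regions at gene starts, 38.0%, was 30.7% within 1 kb, 43.2% in the upper 50% of each list and 30.2% for protein-coding genes. With a width limit of 1 kb, 10 regions remained, with AP-1 in 10.0% and SP/KLF in 0. The PA share, with a difference of 0, lay between -1.55 and 1.55 points. Under the other settings run, the narrow-minus-wide SMAD window shares kept their direction and a p under 0.05. The other SMAD shares, the H3K27ac window shares and the RNA levels kept their direction, but with so few libraries they could pass 0.05 in no setting. The RNA level difference was -0.72 without division by exon length, against -0.36. The replicate block changed no other call. Depth limits single regions, at about 13 fragments each.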
